A study of Sus scrofa with 8 samples.

Results

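Broad regions dominated by fibroblasts are stretches of the pig genome 20 kb or wider. In them the histone mark H3K27ac covers far more length in embryonic fibroblasts than in epiblast stem cells. They were found by joining the overlapping H3K27ac islands of 4 libraries on chromosomes 1 to 18, an island being a stretch where ChIP reads cluster. A joined region was kept if it was at least 20 kb wide and the mean length covered by islands in the fibroblast libraries was at least 3 times that in the stem cell libraries. Of 98547 joined regions of any width 32.3% met the ratio. The width was met by 4813, and 730 of these (15.2%) met both parts of the rule. Another 1904 (39.6%) met the mirrored rule toward the stem cells, and 2179 met neither and are called shared here.

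The stem cells, pgEpiSC, are pig pre-gastrulation epiblast stem cells labelled as day 10 embryonic epiblast, and the fibroblasts, pEF, are porcine embryonic fibroblasts labelled as day 30 fetal. The H3K27ac pull-down gave 2 libraries per type, numbered 1 and 4 for pgEpiSC and 1 and 2 for pEF, and every library has an input of DNA without antibody under the same number. No treatment is labelled. Nothing in the labels says whether the libraries of a type come from separate lines, animals or cultures, so their spread may be technical.

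H3K27ac is acetylation of lysine 27 on histone H3, laid down mainly by the acetyltransferases CBP and p300, and it is found at active promoters and enhancers. Most acetylated sites are short. Long acetylated stretches, often called stretch enhancers or super-enhancers, tend to lie at genes that set the identity of a cell, which in fibroblasts include matrix proteins, adhesion and contractile proteins and mesenchymal transcription factors.

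The fibroblast label was checked against 13 fibroblast genes, read over the gene and 10 kb on either side. Both pEF libraries had islands at all 13. COL1A2, COL3A1, TWIST1 and LUM had no pgEpiSC island, while at 3 markers the types overlapped. DCN had 16 and 12.2 kb in pgEpiSC 1 and 4 and 15.3 and 17.9 kb in pEF 1 and 2. PDGFRB had 27.8 and 34.7 kb against 32.6 and 22.8 kb, and THY1 12 and 5.27 kb against 15.3 and 11.5 kb, so that these 3 do not separate the types here. Of the 13 genes, COL1A2, COL3A1, TWIST1, FN1, VIM and LUM overlapped a broad region dominated by pEF. COL1A1, TWIST2, PRRX1, THY1, PDGFRA, PDGFRB and DCN did not. Of 8 epiblast genes, SALL4, OTX2 and PRDM14 had no island in either pEF library, and the other 5 had 2.8 to 16.8 kb. The island lists differed as wholes. On chromosomes 1 to 18 they covered 397 and 401 Mb in pgEpiSC 1 and 4 and 265 and 267 Mb in pEF 1 and 2, with 28625531, 36561661, 41264137 and 45129916 ChIP reads inside islands. The median enrichment of an island over input was 1.79 and 1.67-fold in pgEpiSC and 3.4 and 3.45-fold in pEF.

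The 730 regions had a median width of 26.9 kb and reached 204 kb. Widths of 40 kb or more were found in 135 regions, of 60 kb or more in 55 and of 100 kb or more in 8. The width is that of islands joined over all libraries. Each pEF library by itself covered 20 kb or more in 496 regions (67.9%). Islands covered a median of 94.4% of a region in pEF 1 and 94.5% in pEF 2, against 7.76% in pgEpiSC 1 and 8.32% in pgEpiSC 4. These lengths chose the regions, so they are a description and no test was made of them. With 2 libraries against 2, the smallest two-sided p of an exact permutation test would be 0.333.

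**Figure D1:**
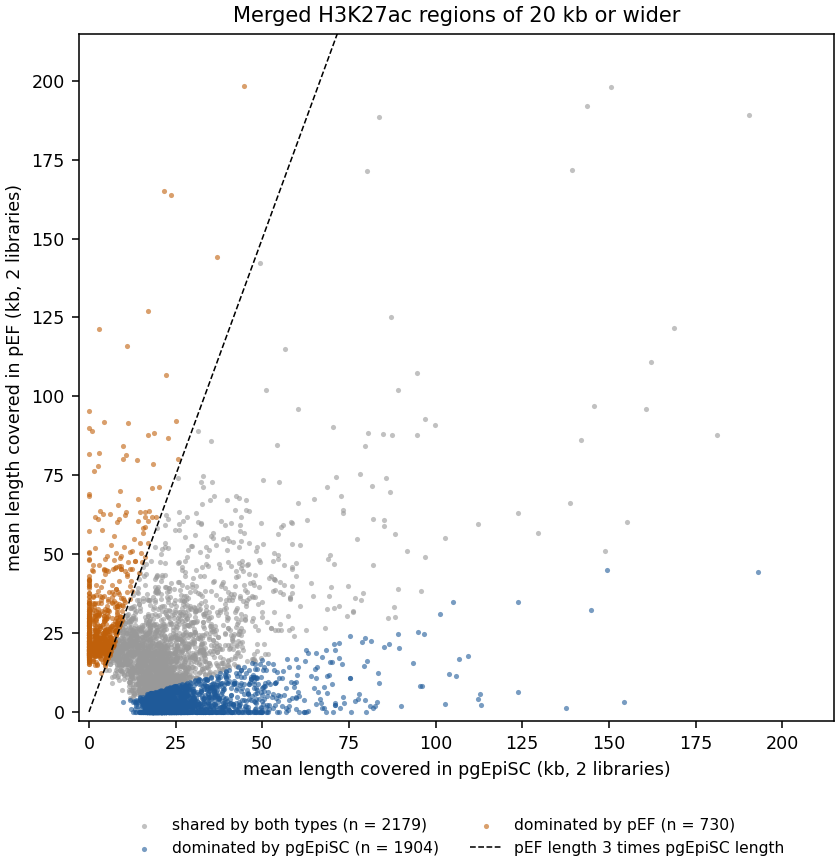
Each point is 1 joined region of 20 kb or wider, placed by the mean length covered in the 2 pgEpiSC libraries (horizontal axis, kb) and in the 2 pEF libraries (vertical axis, kb), with the dashed line at a pEF length 3 times the pgEpiSC length. The 730 regions dominated by pEF lie on or above the line by construction, and 237 of them sit at 0 on the horizontal axis.

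In 729 of the 730 regions the shorter pEF length exceeded the longer pgEpiSC length, which was so in 29.3% of all joined regions of 20 kb or wider. The exception, picked out after its values were seen, lies inside DLGAP1, a postsynaptic scaffold gene, where pEF 2 had no island and pEF 1 covered 28.8 kb, against 5 and 4.4 kb in pgEpiSC 1 and 4. Neither pgEpiSC library had an island in 237 regions (32.5% of the 730, and 4.92% of all joined regions of 20 kb or wider). Both shares count the same 237 regions, since any joined region with a pEF island and no pgEpiSC island meets the ratio. A further 86 of the 730 had an island in pgEpiSC 4 and not in pgEpiSC 1, 61 the reverse, and 346 had one in both. Without pEF 1 the number of regions with no pgEpiSC island was 156, and without pEF 2 it was 159. It was 640 when islands enriched less than 2-fold were left out. The number of regions was also larger under that filter, at 1137, and when dominance was set by ChIP reads net of scaled input in place of length, at 1228. When each covered length was scaled to the total of its library, 958 regions met the rule and all 730 overlapped them.

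How far replicate libraries coincide inside the regions follows in part from the rule, which asks for long pEF and short pgEpiSC coverage, and is given as a description. Of all bases covered by pEF 1 or pEF 2 there, 84.1% were covered in both, compared with 77.3% in the shared broad regions, 55.3% in the regions dominated by pgEpiSC and 63.2% over all their islands. The few pgEpiSC islands in the same regions overlapped less, with 35.9% of their bases in both pgEpiSC 1 and 4, against 56.0% over all islands of those libraries and 80.3% in the regions dominated by pgEpiSC. A region was formed by 1 unbroken island in 350 cases in pEF 1 and 392 in pEF 2, and in both libraries in 176. In 16 regions 1 pEF library covered at least 2 times the length of the other, and pEF 1 was the longer in 6 of them. The widest of these, nearest to ATL2, had 20.4 kb in pEF 1 and 53 kb in pEF 2.

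To read the same measure in libraries that took no part in the choice, the rule was applied to 1 pEF and 1 pgEpiSC library and the covered length was then read in the other 2. The 4 combinations chose 491 to 527 regions. In the libraries not used, the length in pEF was again at least 3 times that in pgEpiSC in 420 of 491 (85.5%), 420 of 501 (83.8%), 432 of 500 (86.4%) and 426 of 527 (80.8%). The pEF length exceeded the pgEpiSC length in all but 1 or 2 regions of each combination. The median length there was 23.0 or 23.2 kb in pEF and 2.80 or 3 kb in pgEpiSC. Since the libraries of a type may be technical repeats, these shares describe how libraries recur and were no test of the cell types. Shares over all joined regions of 20 kb or wider in the same library pairs are not given here.

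Acetylation inside the regions was dense in pEF, as it was in the shared broad regions. Enrichment divides the ChIP reads in a region's islands by the input reads there, scaled to the depth of both libraries. Its median over the 730 regions was 6.07-fold in pEF 1 and 6.48-fold in pEF 2, against 5.96 and 5.78-fold in the shared broad regions. It was at least 5-fold in both libraries in 459 regions (62.9%), against 40.8% of all joined regions of 20 kb or wider. That 40.8% is lowered by the 1904 regions dominated by pgEpiSC, where enrichment could be read in 1111 for pEF 1 and 1143 for pEF 2. In pgEpiSC, where islands existed, the median was 1.77-fold in pgEpiSC 1 and 1.62-fold in pgEpiSC 4. These values lay below the 2.21 and 2.06-fold of these libraries in their own broad regions. They were near the medians of 1.79 and 1.67-fold over all single islands of these libraries. Of the 346 regions with islands in both pgEpiSC libraries, the lower pEF enrichment exceeded the higher pgEpiSC enrichment in 340 (98.3%), with DLGAP1 read in pEF 1 alone. That order was the usual one, found in 92.5% of all joined regions of 20 kb or wider with islands in all 4 libraries. At SERPINE2, which encodes an inhibitor of serine proteases, it did not: an island of 1.6 kb in pgEpiSC 1 was enriched 8.95-fold, against 4.98 and 5.82-fold in pEF 1 and 2. The 2 regions under 2-fold in both pEF libraries lay at an end of FN1, with 1.86 and 1.96-fold, and inside LAMA4, with 1.8 and 1.88-fold.

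**Figure D2:**
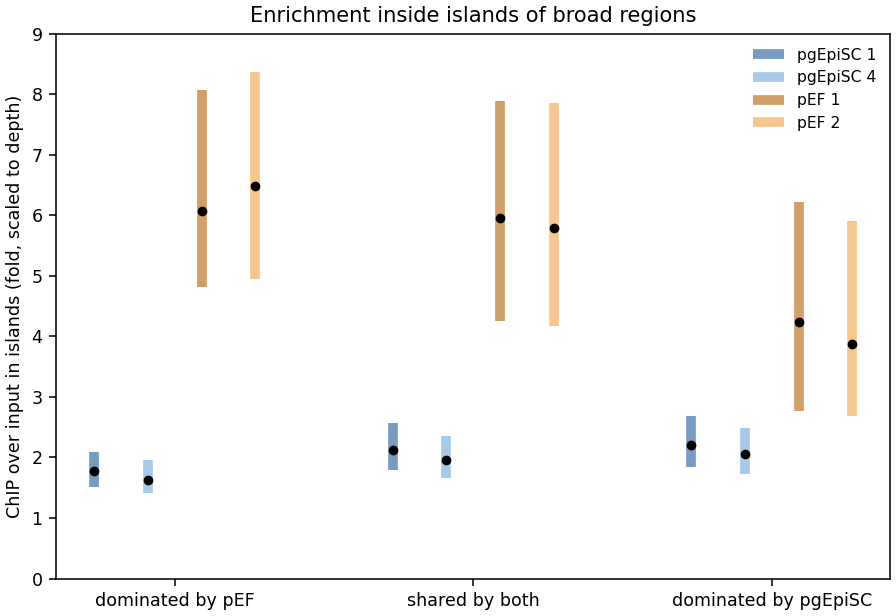
Enrichment of ChIP over input in islands, for each of the 4 libraries in the 3 classes of broad region; dots are medians over regions and bars span the middle 50% of them. The pEF medians are 6.07 and 6.48-fold in the regions dominated by pEF and 5.96 and 5.78-fold in the shared ones.

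Input reads, which carry no acetylation signal and did not enter the rule, were near their usual density. In the regions' islands pEF 1 had 36.9 and pEF 2 had 35.9 input reads per kb, 0.942 and 0.972 times their density over all islands. The values for pgEpiSC 1 and 4 were 34.2 and 37.8, or 0.916 and 0.928 times. In the regions at ADGRG6 and SCARA3 the short pgEpiSC islands, of 1.6 kb or less, held over 100 input reads per kb in at least 1 pgEpiSC library.

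Of the 10 widest regions 8 lay at or inside genes of varied function and 2 between genes. The widest, 204 kb on chromosome 2 from 47145201 to 47349200, covered much of MICAL2, which encodes a monooxygenase that oxidises actin. Islands filled 197 kb of it in pEF 1 and 199 kb in pEF 2, and 61.2 and 28 kb in pgEpiSC 1 and 4. Both pEF libraries were nearly complete, and the pgEpiSC libraries held 13 and 7 separate islands that differed in length between them. A region of 168 kb on chromosome 4 from 130482201 to 130649800 held the whole of DDAH1, an enzyme that degrades methylated arginine, and reached into BCL10, an adaptor of NF-kB signalling. It had 165 kb in each pEF library and 13.4 and 30 kb in pgEpiSC 1 and 4. COL8A1, a chain of type VIII collagen, lay in a region of 165 kb with 165 and 163 kb in pEF 1 and 2, each a single unbroken island, and 28.4 and 19.2 kb in pgEpiSC.

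**Figure D3:**
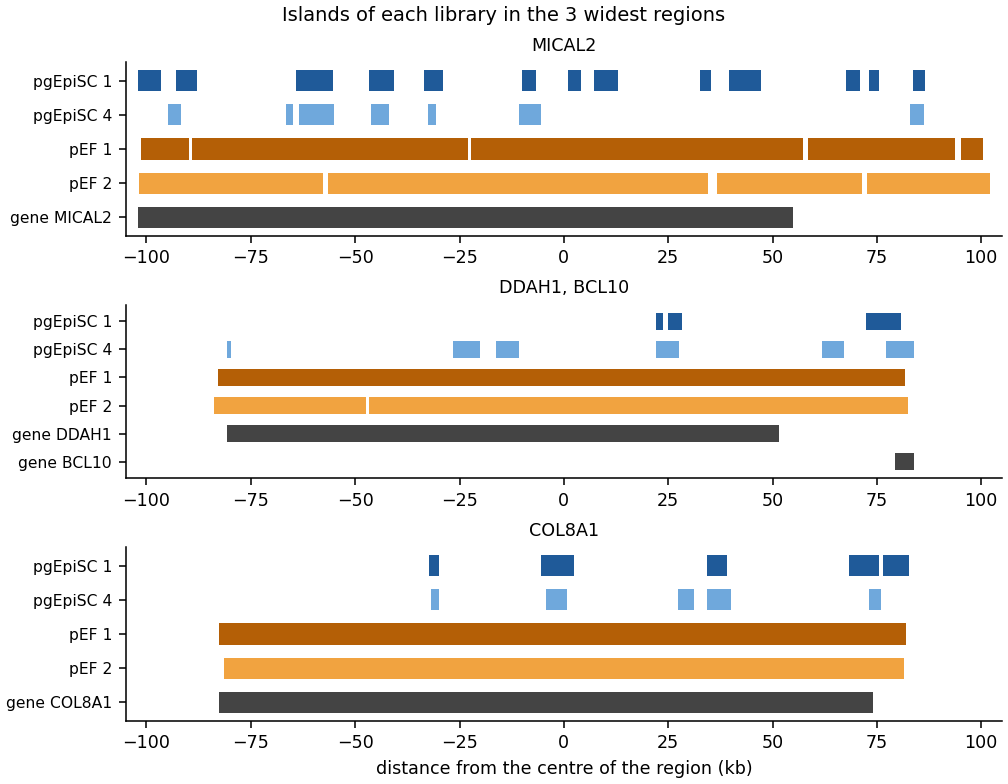
Islands of the 4 libraries in the 3 widest regions, drawn as bars along the distance from the region's centre (kb), with the parts of genes inside the region in dark grey below. In pEF the islands run almost without a gap across each region, and in pgEpiSC they are short and scattered.

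ARID5B, a DNA-binding protein with an AT-rich interaction domain, lay in a region of 147 kb. It was covered over 146 and 142 kb in pEF 1 and 2 and 37.8 and 36.2 kb in pgEpiSC 1 and 4, the second longest pgEpiSC mean among the 10 widest. The region inside GLIS3, a zinc finger transcription factor, had 122 and 121 kb in pEF and 2.8 kb in each pgEpiSC library. At FBN1, which encodes fibrillin 1 of elastic microfibrils, 113 and 119 kb were covered in pEF and 11.2 and 10.6 kb in pgEpiSC. TNS1, the focal adhesion protein tensin 1, had 110 and 104 kb against 18 and 26.4 kb. A region inside ADAM12, a membrane metalloprotease, was free of pgEpiSC islands and had 92.2 and 98.6 kb in pEF. The wider of the stretches between genes, 178 kb from RASGRP1, had 128 and 126 kb against 22.2 and 12 kb. The other holds microRNA genes described last. The gap between the pEF and pgEpiSC lengths in these 10 regions follows from the rule.

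**Figure D4:**
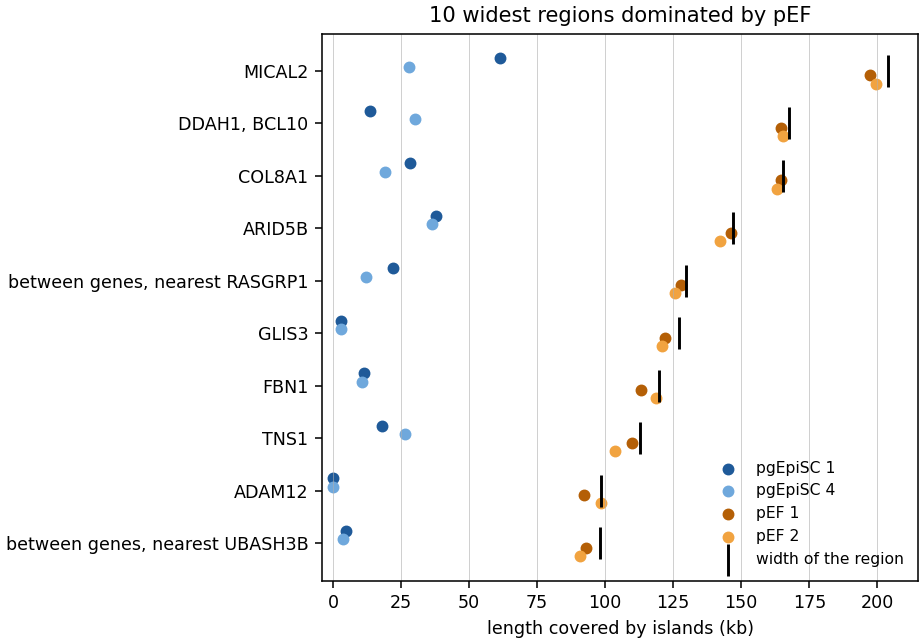
Length covered by islands (kb) in each of the 4 libraries for the 10 widest regions, with a black tick at the width of the region. The pEF points lie close to the tick in every region, and the pgEpiSC points at 61.2 kb or less.

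Regions with no pgEpiSC island were narrower at the median, 24.4 kb against 28.4 kb for the rest, but some were very wide. After ADAM12 the widest was at an end of ATP8B4, a phospholipid flippase gene, at 94 and 86 kb in pEF 1 and 2. A second ADAM12 region had 78.8 and 84.8 kb. PLA2G4A, the cytosolic phospholipase that releases arachidonic acid, had 71.4 and 66.4 kb, and KLHL38, a kelch family gene, 68.2 and 68.8 kb. Of the 4 that lay between genes, those nearest to HTR7 and TNP1 were shorter in pEF 2, at 68.8 and 45.6 kb and at 61.2 and 39.2 kb, and the one nearest to ATL2 was the uneven region given above. The one nearest to TPM1, a tropomyosin gene, had 50.8 and 50.4 kb. The 10th was the HOXC cluster, described with the HOX genes.

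Density gave another order than width. Ranked by pEF ChIP reads net of scaled input per kb, the first was a region of 33 kb inside HECW2, a ubiquitin ligase gene, enriched 17.7-fold in pEF 1 and 18.1-fold in pEF 2. It had 1 island of 5.6 kb in pgEpiSC 1 and none in pgEpiSC 4. The second held VIM, the intermediate filament protein of mesenchymal cells, and part of its neighbour TRDMT1. That region of 34.6 kb was filled over 34.6 and 34.2 kb in pEF, enriched 16.2 and 18-fold, while pgEpiSC had 1.8 and 1.6 kb at 1.79 and 1.62-fold. A region at an end of CD109, a membrane-anchored protein that binds TGF-beta, was enriched 13.3 and 18.5-fold, though pgEpiSC 1 and 4 also had 10.2 and 3.8 kb there. One inside RUNX1 was enriched 14.1 and 12.1-fold. LAMA4, a laminin chain, had 11.9 and 17.5-fold over a region at its end. The other 5 lay between genes, nearest to CDC42EP3, IRX1, FMOD, ESM1 and GLI3. The region nearest to IRX1 was far from any gene with a symbol, at 589 kb, and was enriched 17.9 and 16.7-fold with no pgEpiSC island. Over the 730 regions width and mean pEF enrichment were weakly related (Spearman's rank correlation 0.203, Pearson's r 0.130), as a description across regions of the same libraries.

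These regions lay between genes more often than the other broad regions did. Positions were read against the gene table of the pig assembly Sscrofa11.1, counting protein-coding genes with a symbol. Of the 730, 286 (39.2%) touched no such gene, 262 (35.9%) lay wholly inside a gene and 182 (24.9%) held an end of a gene. Between genes lay 23.1% of the regions dominated by pgEpiSC and 18.8% of the shared ones, and gene ends were held by 36.0% and 47.4%. Among regions of 20 to 30 kb alone the shares between genes were 43.3%, 26.2% and 21.2%. No test was made of these shares, since regions are not replicates of a cell type.

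Of the 286 regions between genes 130 were more than 100 kb from the nearest gene with a symbol, and the median distance was 86.9 kb. A long non-coding RNA gene overlapped 84 of them, and 192 overlapped neither such a gene nor a protein-coding gene without a symbol. Regions with a gene end were the most enriched, with medians of 7.05 and 7.11-fold in pEF 1 and 2, compared with 6.25 and 6.67-fold between genes and 5.46 and 5.81-fold inside genes. No pgEpiSC island was found in 39.5% of the regions between genes, 33.2% of those inside genes and 20.3% of those with a gene end. Where a gene end was held, an island reached within 2 kb of an end in both pEF libraries in 177 of 182 regions and in both pgEpiSC libraries in 80. Such windows made up 15.7% of the length of these regions, 15.8 and 15.5% of the island length of pEF 1 and 2, and 26.3 and 27.3% of that of pgEpiSC 1 and 4. The rule kept regions that pEF islands nearly fill, so the pEF shares and the 177 regions largely follow from it. The pgEpiSC shares stood above the 15.7% of the length, which was not tested.

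Some regions formed longer domains. Joined across gaps of up to 50 kb, 256 of the 730 fell into 103 groups of 2 or more and 474 stood alone. The share with a neighbour, 35.1%, compares with 41.8% for the regions dominated by pgEpiSC and 43.3% for the shared ones, which are more numerous. The largest group, by the summed width of its regions, held 6 regions of 325 kb over FANK1 and ADAM12 on chromosome 14, covered over 304 and 314 kb in pEF 1 and 2 and 12 and 16.2 kb in pgEpiSC 1 and 4. At FBN1 5 regions made up 290.2 kb, with 262 and 282 kb in pEF and 28.4 and 28.6 kb in pgEpiSC. A group of 6 regions, 271 kb in all, touched no gene with a symbol and lay 251 kb from THBS1, the thrombospondin 1 gene, at 267 and 251 kb in pEF against 58.4 and 43 kb. Next came MICAL2 with 2 regions (243 kb) and the fibrillar collagen neighbours COL3A1 and COL5A2 with 4 (226 kb).

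Chromosomes differed in how many of these regions they carried. Chromosome 1 had 123, which was 24.0% of its broad regions, and chromosomes 13 and 15 had 21.9% and 20.4%. Chromosomes 12 and 6 had the smallest shares, 6.15% (16 regions) and 6.67% (29 regions). Per 10 Mb of mapped extent, the number ran from 1.66 on chromosome 8 to 4.62 on chromosome 10.

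Genes overlapping the regions numbered 401, or 2.56% of the 15689 protein-coding genes with a symbol. Their median length was 107 kb, against 25.6 kb for all genes, and long genes offer more room for an overlap. The part of gene length in the counts below was not tested. The matched genes of 11 lists of fibroblast functions numbered 442, and 87 of them (19.7%) overlapped a region. Conversely 117 of the 730 regions (16%) held a listed gene. Each list described is to be read beside the 2.56% over all genes, and its counts in other broad regions beside 8.8% of all genes in those dominated by pgEpiSC and 12.3% in shared ones. No test was made, since the regions were chosen by the contrast between the types. The lists were chosen with earlier results of these data known, so their shares are a description and not independent evidence.

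**Figure D5:**
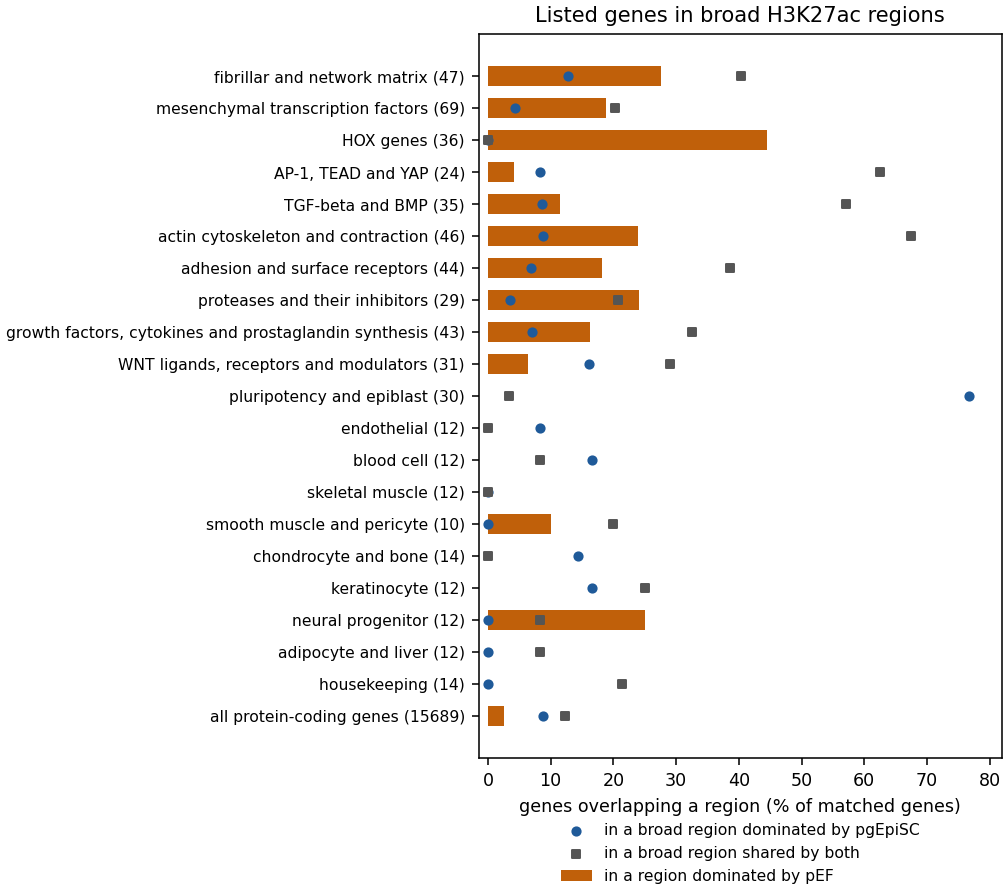
Share of the matched genes of each list shown (number matched in brackets) that overlap a region dominated by pEF (bars), a broad region dominated by pgEpiSC (circles) or a shared broad region (squares). HOX genes have the longest bar at 44.4%, and the AP-1, TEAD and YAP list has 4.17% in regions dominated by pEF and 62.5% in shared ones.

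Of 47 matched genes for fibrillar and network matrix 13 (27.7%) overlapped a region, 11 of them with a gene end inside, and 19 overlapped a shared broad region. FBN1 had 4 regions of its own, with 213 and 226 kb covered in pEF 1 and 2 and 21.4 and 22.8 kb in pgEpiSC 1 and 4. COL5A2, a chain of type V collagen, had 174 and 194 kb against 15.4 and 18.2 kb, over regions it partly shares with COL3A1. COL12A1, which binds to collagen fibrils, had 86 and 118 kb against 15.4 kb in pgEpiSC 1 and none in pgEpiSC 4. FN1, the fibronectin gene, had 106 and 96.4 kb against 12 and 9.4 kb. COL8A1, given above, was the other of the 5 longest. The gap between the types at these 5 genes likewise follows from the rule.

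Transcription factors of mesenchyme overlapped regions at 13 of 69 loci (18.8%) and shared broad regions at 14 (20.3%). No broad region of any class was overlapped by 40 of the 69. RUNX1, a runt domain factor, had 4 regions within its gene body, with 100.4 and 96.6 kb in pEF 1 and 2 and 16.8 and 24.6 kb in pgEpiSC 1 and 4. ETS1, the founding member of the ETS family, had 79.6 and 84.4 kb against 1.6 and 4 kb. PRRX2, a paired-type homeobox gene of limb and facial mesenchyme, shared its region with PTGES and had 68.4 and 73.2 kb against 15.8 and 20.8 kb. The pgEpiSC length at PRRX2 was the second longest of the 13, after RUNX1. TBX2, a T-box repressor, had 34.2 and 39.4 kb against 2.4 kb and none, and SNAI2, a repressor of epithelial genes, had 28 kb in each pEF library against 7.2 and 2.6 kb. Of the 13 loci TWIST1, NR2F2, LMX1B, TBX3 and EBF1 had no pgEpiSC island, named after their values were seen.

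HOX genes, which specify position along the body axis, had the highest share of any list. Of 36 matched, 16 (44.4%) lay in 3 regions and none lay in a broad region of either other class. A region of 52 kb on chromosome 5 from 19201401 to 19253400 held HOXC4, HOXC5, HOXC6, HOXC8, HOXC9 and HOXC10 in whole or part, with 51.2 kb in pEF 1 and 46 kb in pEF 2. One of 51.4 kb on chromosome 18 from 45387001 to 45438400 held 7 HOXA genes from HOXA3 to HOXA11, with 45.6 and 50.6 kb. The third, of 32 kb on chromosome 15, held HOXD8, HOXD9 and HOXD10, with 27.4 and 31.8 kb. No HOX region had a pgEpiSC island. Enrichment was higher in pEF 1 than in pEF 2 in all 3, at 9.52 and 5.75-fold in HOXC, 11.2 and 6.97-fold in HOXA and 11.5 and 8.84-fold in HOXD. The 16 genes are 3 measurements, since neighbours share a region.

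Signalling lists were sparser. TGF-beta and BMP genes overlapped regions at 4 of 35 loci (11.4%) and shared broad regions at 20. LTBP1, which stores latent TGF-beta in the matrix, had 89.2 and 95.2 kb in pEF 1 and 2 and 30.6 and 19.6 kb in pgEpiSC 1 and 4. The ligand gene TGFB2 had 24.4 and 26.6 kb against 5 and 5.8 kb, at 14.7 and 11.5-fold enrichment in pEF. SMAD3, a receptor-regulated SMAD, had 17.8 and 23.8 kb against 3.8 and 4 kb, and LTBP2 had 19.2 and 16.4 kb and no pgEpiSC island. Of 24 genes for AP-1, TEAD and YAP, whose products drive transcription in spread and stretched cells, 1 overlapped a region. It was the YAP target ANKRD1, at 43.6 and 34.2 kb against 6.8 and 9 kb, while 15 of the 24 lay in shared broad regions.

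WNT genes overlapped regions at 2 of 31 loci (6.45%), with 5 (16.1%) in regions dominated by pgEpiSC and 9 (29.0%) in shared ones. The ligand gene WNT5B had 35 and 33.4 kb in pEF 1 and 2 and no pgEpiSC island, and the secreted protein gene DKK3 had 23 and 22 kb against 3.8 and 6.4 kb. Growth factor, cytokine and prostaglandin genes overlapped regions at 7 of 43 loci (16.3%) and shared broad regions at 14 (32.6%). PTGES, a prostaglandin E synthase gene, shares the region of PRRX2. IGFBP7, a secreted protein of the insulin-like growth factor binding family, had 62.2 and 63 kb against 3 and 4.8 kb. CCL2, a monocyte chemokine, was uneven in pEF, with 37.8 kb in pEF 1 and 55.2 kb in pEF 2 against 3 and 2.8 kb. NRG1, an ERBB ligand, had 31.2 and 27.8 kb against 5.4 and 4.6 kb.

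Genes of the actin cytoskeleton overlapped regions at 11 of 46 loci (23.9%), but at 4 of these with a gene end inside, and 8 of the 11 also overlapped a broad region of another class. Shared broad regions were met by 31 of the 46 (67.4%), the highest such share of any list. MICAL2 came first with 235 and 238 kb in pEF 1 and 2 against 75.8 and 38.2 kb. TNS1 had 157 and 153 kb against 23.4 and 35.6 kb over 2 regions. LPP, a LIM protein of focal adhesions, had 111 and 143 kb against 12 and 8 kb. PDLIM5 and PALLD, which bind alpha-actinin, had 80.2 and 79.8 kb against 33.2 and 18 kb and 46.4 and 47 kb against none and 2.2 kb. Among these 5 genes the types differed least in proportion at PDLIM5. Enrichment in pEF 1 and 2 was 3.07 and 4.01-fold at LPP and 3 and 3.34-fold at PDLIM5. At CALD1, an actin-binding protein gene named after its values were seen, it was 2.56 and 2.58-fold, below the 2.94 and 2.87-fold in pgEpiSC 1 and 4.

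Adhesion and surface receptor genes overlapped regions at 8 of 44 loci (18.2%), 7 with a gene end inside, and shared broad regions at 17 (38.6%). SDC2, the heparan sulphate proteoglycan syndecan 2, had 119 and 130 kb in pEF 1 and 2, and pgEpiSC 1 had no island where pgEpiSC 4 had 23.2 kb. ANTXR1, a receptor for collagen, had 117 and 113 kb against 8.6 and 23.4 kb. ITGA8, an integrin alpha chain, had 113 and 102 kb against none and 1.6 kb, the highest ratio among the 8. NRP2, a semaphorin receptor, had 62 and 64.6 kb against 18.4 and 10.8 kb, and CD44, the hyaluronan receptor, had 36.2 and 49.6 kb against 3.2 and 4.4 kb.

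Of the other genes named by the rule, PARVA, which links integrins to actin, had 110 and 106 kb in pEF 1 and 2 against 4.8 and 20 kb in pgEpiSC 1 and 4. TLN2, a talin, had 47.4 and 50.8 kb against 3.6 and 8.6 kb. At both genes pgEpiSC 4 had more than pgEpiSC 1.

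Proteases and their inhibitors overlapped regions at 7 of 29 loci (24.1%) and shared broad regions at 6. ADAM12 led all listed genes, with 6 regions, 304 and 314 kb in pEF 1 and 2 and 12 and 16.2 kb in pgEpiSC 1 and 4. ADAM19, a related membrane protease, had 104 and 95.8 kb against 8.8 and 18.8 kb. PAPPA, which cleaves insulin-like growth factor binding proteins, had 54.6 and 57.8 kb against 9 and 7.2 kb. SERPINE2 had 43.4 and 46.8 kb against 1.6 and 7 kb, and ADAMTS6, a secreted metalloprotease gene, 37 and 33.4 kb against 6.6 and 4.2 kb.

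Lists for other cells are short, and at the 2.56% over all genes a list of their size would seldom hold a member, so a count of 0 says little. None of the 30 matched pluripotency and epiblast genes overlapped a region, and 23 lay in broad regions dominated by pgEpiSC. Counts were also 0 for endothelial (12 matched), blood cell (12), skeletal muscle (12), chondrocyte and bone (14), keratinocyte (12) and adipocyte and liver genes (12) and for housekeeping genes (14). Smooth muscle and pericyte genes gave 1 of 10, DAAM2, a formin family regulator of actin assembly, with 111 and 103 kb in pEF 1 and 2 against 15.6 and 18.6 kb. Neural progenitor genes gave 3 of 12 (25%) in 2 regions, a share above that of most fibroblast lists. DLX1 and DLX2, neighbouring homeobox genes, share a region with 22.4 kb in pEF 1 and 13.6 kb in pEF 2, and SIX3, a homeobox gene of the forebrain, had 20.8 and 13 kb. At these 3 genes pEF 2 was the shorter, and pgEpiSC had 2.4 to 4.2 kb.

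Among genes outside the lists, picked out after their values were seen, several were overlapped over long stretches. GLIS3 had 212.8 kb in 4 regions, ARID5B 175 kb in 2, the carboxypeptidase gene CPQ 164 kb in 4 and PHLDB2, a cortical adaptor of focal adhesions, 145 kb in 4. DDAH1 lay whole inside 1 region. MAML2, a coactivator of NOTCH signalling, had 131 kb in 4, RBMS1, an RNA-binding protein gene, 123 kb in 2 and IGF1R, the receptor of insulin-like growth factor 1, 116 kb in 2. Of the 401 genes 62 lay entirely inside such regions and 71 were met by 2 or more of them.

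MicroRNA genes of the table lay in 9 of the regions, 11 genes of 270 (4.07%). The regions dominated by pgEpiSC held 22 (8.15%) and the shared broad regions 33 (12.2%), so microRNA genes are not particular to the regions described here. A stretch on chromosome 9, 403 kb or more from any protein-coding gene with a symbol, held 3 of them in 2 neighbouring regions. MIR100 and MIRLET7A-1 lay in a region of 98 kb from 49130001 to 49228000, the 10th widest of all, with 92.8 and 90.8 kb in pEF 1 and 2 and 4.8 and 3.6 kb in pgEpiSC 1 and 4. MIR125B-1 lay beside it in a region of 30.8 kb, with 30.8 and 29.8 kb against 3 kb and none. The let-7 family is known for being held back in pluripotent cells by LIN28. The HOXC region held MIR196A-2 and MIR615. MIR140 lay with WWP2, at 20.2 and 19.8 kb against 6.2 and 4 kb, and MIR365-1 in a region between genes, at 32 and 28.4 kb against 11.4 and 4.8 kb. The others were MIR190A in TLN2, MIR378-2 in BCAS3, MIR7140 in a region with REM1 and MIR9852 between genes.

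At the limits of the rule, 16 regions were exactly 20 kb wide and 16 that met the ratio fell just short at 19.8 kb. The regions just inside the ratio were at RGS1 and LRRFIP1, both at 3 times, and at LAPTM4A at 3.01 times (21.1 kb in pEF, 7 kb in pgEpiSC). Just outside were DCAF5 at 2.99 times (58.4 kb against 19.5 kb), SMAP2 at 2.99 times and a region nearest to TRIB2 at 2.99 times. Where pgEpiSC had an island the median ratio was 5.73.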

How the data were processed

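H3K27ac ChIP-seq libraries of pgEpiSC and pEF, sequenced as 150 bp paired-end reads of fragments of about 200 to 500 bp per the labels, were each deposited as a list of islands. The submitters' processing notes name the tools BWA 0.7.15, SAMtools 0.1.19 and SICER 1.1. No list has a header. Deposited columns hold whole read counts of ChIP and input per island, a p-value and an FDR against input, and a fold, the ratio of ChIP to input scaled to depth. Islands were called in each library separately, in windows of 200 bp, with no FDR limit (FDR reached 1). The genome build is not given in the sources used here. Coordinates are those of the lists, counted from 1, and genes came from the RefSeq table of Sscrofa11.1, since on 18 of 18 chromosomes islands met gene ends more often than points shifted from them by 20 kb. That table gives no strand.

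Islands sharing a base were joined, and covered length was summed by library. Depth is known only as reads inside islands. No feature-wide test was run, because the rule used the contrast between the types. The regions, the 21 gene lists (579 of 595 distinct genes matched) and the naming rule (the 10 widest, densest and widest pgEpiSC-free regions, regions next to each limit, the 5 largest groups, up to 5 genes per fibroblast list, listed genes of other cell types, microRNA genes) were chosen with earlier results of these data known. The planned promoter motifs and sequences were not analysed here. Some listed genes and 1 list are counted in the totals but not reported here. Alternatives were FDR and fold filters, a stricter overlap, a ratio of 5, scaled lengths, net reads and leaving out each library. The joining and overlap steps were tested on simulated data, with 0 of 700 checks wrong. Python 3.11.15, numpy 2.4.6, pandas 2.3.3 and matplotlib 3.10.9 were used.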

Additional observations from a re-analysis of the deposited data

Results flagged for a closer look

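The X chromosome was outside the rule and no comparison above used it. Under the same limits 9 of its 53 joined regions of 20 kb or wider (17.0%) met the ratio of 3 toward pEF. That share was near the 15.2% over the numbered chromosomes, and within their range of 6.15% to 24.0%. The regions were flagged only because they lie in data not otherwise used. The widest of the 9, at PLS3, an actin-bundling protein gene, had 46.6 and 40.8 kb in pEF 1 and 2. It had 9.8 and 12.6 kb in pgEpiSC 1 and 4. FHL1, a LIM protein gene, had 32.6 and 38.8 kb against 8.2 and 7.6 kb. GPC4, a cell surface proteoglycan, had 17.4 and 23.8 kb against none and 1 kb.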

How the results depend on the processing

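The 730 regions, the 237 of them without a pgEpiSC island, the 401 genes they overlap and the 87 listed genes moved by over 1.5 times under some settings. Leaving out islands enriched less than 2-fold, these counts were 1137, 640, 684 and 131, and 690 of the 730 regions overlapped one chosen that way. With islands at an FDR under 1e-10 the number without a pgEpiSC island was 373, the other 3 counts stayed within 1.5 times, and 709 of the 730 were overlapped. The share of pEF bases covered in both libraries was 82.7% and 83.6% under these filters, against 84.1%. Dominance by net ChIP reads gave 1228 regions, 750 genes and 137 listed genes. A stricter overlap for joining (724 regions), a ratio of 5 (526) and scaled lengths (958) kept all 4 counts within 1.5 times. Leaving out 1 library gave 497 to 739 regions, 156 to 322 without a pgEpiSC island, 270 to 406 genes and 63 to 89 listed genes, the lowest count of regions coming without pEF 2. Of the 730 regions, 481 were overlapped without pEF 1 and 452 without pEF 2, against 670 and 672 without pgEpiSC 1 and 4. The rule on 1 library of each type, added after seeing the data, gave 491 to 527 regions. Input reads per kb in pEF moved by less than the SD between libraries. No paired analysis was possible because no label links a pgEpiSC library to a pEF library, and no result comes from a test. Whole library depths were not used here, so enrichment rests on the deposited scaling of ChIP to input.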

Other observations

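At 2 loci the regions held genes that act in prostaglandin synthesis, picked out after their values were seen. PLA2G4A, which releases arachidonic acid, was met by 4 regions on chromosome 9, and the one at its end also held PTGS2, the inducible cyclooxygenase gene. That region had 21.2 and 15.8 kb covered in pEF 1 and 2 and no pgEpiSC island. The widest in PLA2G4A had 71.4 and 66.4 kb at 9.06 and 9.77-fold enrichment. PTGES, which acts on the product of cyclooxygenase, lay in the region it shares with PRRX2, at 8.86 and 9.62-fold in pEF and 1.95 and 1.62-fold in pgEpiSC 1 and 4.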
